A study of Mus musculus with 816 samples.

Results

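Dual-specificity phosphatases switch off mitogen-activated protein kinases (MAPKs) by removing phosphate from both the threonine and the tyrosine of the kinase activation loop. Many of these phosphatases are themselves made in response to the pathway that they silence, so their transcripts are among the classical negative-feedback genes of stress and growth factor signaling. In macrophages and microglia, MAPKs of the ERK, JNK and p38 classes carry signals from Toll-like receptors to cytokine genes, and the phosphatases set how long those signals last. The genes described here are Dusp1, Dusp2, Dusp3, Dusp4, Dusp5, Dusp6 and Dusp16, which were chosen by name. They are 7 of the 45581 genes in the table of cultures and 7 of the 29858 genes in the table of mice. Dusp1, Dusp2, Dusp4 and Dusp5 encode inducible nuclear enzymes. Dusp1 acts chiefly on p38 and JNK and Dusp5 on ERK, whereas Dusp2 and Dusp4 act on ERK and on other MAPKs. Dusp6 encodes a cytoplasmic ERK phosphatase, Dusp16 encodes a phosphatase of JNK and p38, and Dusp3 encodes a small atypical enzyme without the MAPK-docking domain of the others.

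Gene expression was measured by sequencing of RNA 3′ ends in 784 cultures of primary neonatal mouse microglia and in microglia from 32 mice. The cultures came from 3 lots of purchased cells, were grown in multi-well plates and received fresh medium with or without a stimulus for 4, 24 or 72 h. There were 40 untreated cultures at 24 h and 25 at 72 h but none at 4 h, so cultures given the chemokines CCL2 or CCL7 for 4 h (7 each) served as the reference at that time. Stimuli are named as labelled: LPS_hi and LPS_lo are lipopolysaccharide, a Toll-like receptor 4 ligand, at 0.0001 and 0.00001 μg/μl, P3C is the lipopeptide Pam3CysSerLys4 and polyIC is a double-stranded RNA analog. ATP and nicotine were labelled at 1000 μM and norepinephrine at 1 μM, whereas labels of mixtures with LPS give the LPS dose only. The mice were C57BL/6 animals of no altered genotype. In the LPS experiment, microglia were taken 4 h after an injection of LPS at 2 mg/kg (4 mice) or PBS (4 mice). All of these were females at 2 months of age. In the aging experiment, males labelled Naive were 2 months (11 mice) or 22 months old (13 mice). The column headers of the table also carry the word Vehicle for all 8 mice of the LPS experiment and for 8 of the 24 aging mice, the 4 of each age that make up the first run of library numbers. Microglia from mice were enriched with a CD11b antibody, which also binds other myeloid cells.

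All levels below are in CPM, the read count of a gene scaled to a common total of mapped reads, without correction for gene length, so that a level is compared between samples of 1 gene and never between genes. The tables of cultures and mice were normalized separately and no test was made across them. Fold changes are differences of means of log2(CPM + 1), tested by limma with Benjamini-Hochberg adjustment over all genes of the comparison. In cultures a gene counted as called when its adjusted p lay under 0.05 and its log2 fold change was 1 or more in either direction. In mice the adjusted p alone decided. Nothing in the labels ties replicates to separate litters or donors, so p-values measure the spread between these cultures or mice. Mapped depth was 1.00 to 38.2 M reads (M, mega) per culture and 2.36 to 7.78 M per mouse.

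Microglial markers were present in every group examined, and the 8 listed markers summed to 32559 to 68811 CPM over the mice. In cultures the same sum was 3581 to 9234 CPM at 24 h without treatment and 884 to 2831 CPM with LPS_hi, ranges that did not overlap. In cultures, T cell, B cell and neutrophil markers had medians of at most 9.68 CPM in each group examined. Endothelial and fibroblast markers were higher at 24 h, with medians of 58.6 and 48.3 CPM without treatment and of 61.8 and 25.6 CPM with LPS_hi. Perivascular macrophage markers were higher still at 24 h, with medians of 297 CPM without treatment and 182 CPM with LPS_hi. Among mice, astrocyte markers had medians of 449 CPM after PBS and 234 CPM after LPS. Monocyte markers had medians of 39.3 and 79.8 CPM there, and both lists had overlapping ranges. At 2 and 22 months the medians were 411 and 350 CPM for astrocyte markers and 70.7 and 143 CPM for monocyte markers. The part of these cells in the phosphatase values was not tested. The cultures were spread over 10 plates, and untreated levels of the phosphatases differed among plates. The untreated plate means at 24 h ran from 8.96 to 50.4 CPM for Dusp1 and from 0 to 16.2 CPM for Dusp2. Most called values are therefore given with the value from a fit that has culture plate as a term, or with the differences inside single plates. RNA from fewer responding cells and less RNA per cell cannot be told apart in these bulk samples.

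The members have the following places in GRCm38. Dusp1 (ENSMUSG00000024190.7) lies on chromosome 17 from 26505590 to 26562128 on the minus strand, an extent that overlaps Ergic1 on the other strand. Dusp2 (ENSMUSG00000027368.6) lies on chromosome 2 from 127336159 to 127338376 on the plus strand, and Dusp3 (ENSMUSG00000003518.13) on chromosome 11 from 101971143 to 101987013 on the minus strand. Dusp4 (ENSMUSG00000031530.6) lies on chromosome 8 from 34807297 to 34819894 on the plus strand. Dusp5 (ENSMUSG00000034765.6) lies on chromosome 19 from 53529109 to 53542431 on the plus strand. Dusp6 (ENSMUSG00000019960.8) lies on chromosome 10 from 99263231 to 99267489 on the plus strand, and Dusp16 (ENSMUSG00000030203.17) on chromosome 6 from 134715468 to 134792625 on the minus strand. Dusp3, Dusp5 and Dusp16 overlap annotated antisense genes, and the strand setting that the quantification detected is not given in the sources used here.

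The promoters of Dusp1 and Dusp5 are printed because these genes rose together with ATP and with norepinephrine after 4 h, as given further on. Each sequence runs from 250 bases before the RefSeq start to 50 bases after it, in GRCm38.p6. In the Dusp1 promoter (chr17:26508423-26508722, minus strand) the capitals mark a cAMP response element, TGACGTCA, which began 143 bases before the start:

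Dusp1: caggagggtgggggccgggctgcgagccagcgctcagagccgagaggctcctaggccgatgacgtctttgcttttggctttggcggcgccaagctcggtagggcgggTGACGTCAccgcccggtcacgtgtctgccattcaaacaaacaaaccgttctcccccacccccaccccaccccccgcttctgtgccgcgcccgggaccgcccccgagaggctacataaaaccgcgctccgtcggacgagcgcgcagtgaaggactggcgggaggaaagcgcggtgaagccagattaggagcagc

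In the Dusp5 promoter (chr19:53528895-53529194, plus strand) the capitals mark 2 adjoining CArG boxes, the binding motif of serum response factor, which began 82 and 72 bases before the start:

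Dusp5: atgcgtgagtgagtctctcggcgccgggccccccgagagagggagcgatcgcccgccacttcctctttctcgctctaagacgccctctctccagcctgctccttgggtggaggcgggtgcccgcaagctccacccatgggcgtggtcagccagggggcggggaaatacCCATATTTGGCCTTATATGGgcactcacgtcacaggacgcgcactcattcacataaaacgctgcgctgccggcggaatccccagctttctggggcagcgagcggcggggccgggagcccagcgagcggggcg

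Both strands were searched in the promoters of the 6 members that the RefSeq table holds (all but Dusp4). The 8-letter element TGACGTCA was in 1.79% of 32851 promoters of the same length and, among the members, in that of Dusp1. Its core TGACG, which is part of the longer element, was in 20.8% of promoters and in those of Dusp1, Dusp2, Dusp5 and Dusp16. CArG boxes were in 1.63% of promoters and, among the members, in that of Dusp5. The AP-1 letters TGANTCA (7.81% of promoters) and the NF-kB motif (4.51%) were in none of the 6. These matches describe letters in the window and not binding.

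LPS injected into mice was followed 4 h later by higher Dusp1, Dusp2, Dusp5 and Dusp16 and by lower Dusp6. Of the 6 members tested, 5 were called, where 22.4% of all 9012 genes tested were called. Dusp4 stayed under 5 CPM in all 8 mice and was not tested, with values of 0.396 to 0.589 CPM after PBS and 0.514 to 2.55 CPM after LPS. Dusp5 exceeded 5 CPM in the 4 LPS mice and Dusp1 in these and 1 PBS mouse, so both passed the filter on low values (4 mice above 5 CPM) through the group in which they were high.

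Dusp1 measured 4.51, 4.91, 9.50 and 4.93 CPM in the PBS mice and 258, 286, 238 and 291 CPM in the LPS mice. The groups lay far apart, with the lowest LPS mouse over every PBS mouse, and the log2 fold change was 5.32 ± 0.20 (SE; adjusted p = 1.02e-10 by limma). Dusp2 measured 14.3, 13.9, 15.8 and 15.1 CPM after PBS and 628, 605, 689 and 570 CPM after LPS. Its groups were likewise separate, with a log2 fold change of 5.30 ± 0.13 (adjusted p = 2.76e-12 by limma). Dusp5 was at 3.34, 3.03, 2.37 and 3.48 CPM after PBS and at 54.6, 67.3, 103 and 66.6 CPM after LPS. No LPS mouse came near the PBS mice, and the log2 fold change was 4.16 ± 0.22 (adjusted p = 3.88e-09 by limma).

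Dusp16 showed a smaller rise, from 21.4, 14.1, 17.4 and 17.5 CPM to 50.1, 52.2, 72.8 and 67.8 CPM. The groups did not overlap and the log2 fold change was 1.72 ± 0.18 (adjusted p = 7.11e-06 by limma). Dusp6 moved the other way, from 470, 319, 499 and 388 CPM to 194, 177, 152 and 168 CPM. Every LPS mouse was under every PBS mouse, and Dusp6 fell by 1.26 on the log2 scale (SE 0.15, adjusted p = 2.73e-05 by limma). Dusp3 measured 130, 86.7, 150 and 82.7 CPM after PBS and 89.1, 84.1, 132 and 81.2 CPM after LPS, ranges that overlapped (log2 fold change -0.20 ± 0.21, adjusted p = 0.527 by limma).

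The median log2 fold change of all tested genes in this comparison was -0.19, and median-ratio scaling left the 5 calls with values of 5.47 for Dusp1, 5.45 for Dusp2, 4.29 for Dusp5, 1.87 for Dusp16 and -1.10 for Dusp6. Neutrophil markers summed to 81.8 to 149 CPM after PBS and 179 to 328 CPM after LPS, with 5 of the 6 markers above 5 CPM on average in both groups. Genes that respond to tissue dissociation, among them Fos, Jun and Egr1, summed to 711 to 781 CPM after PBS and 6134 to 8529 CPM after LPS. The part of either in the phosphatase values was not tested.

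**Figure D1:**
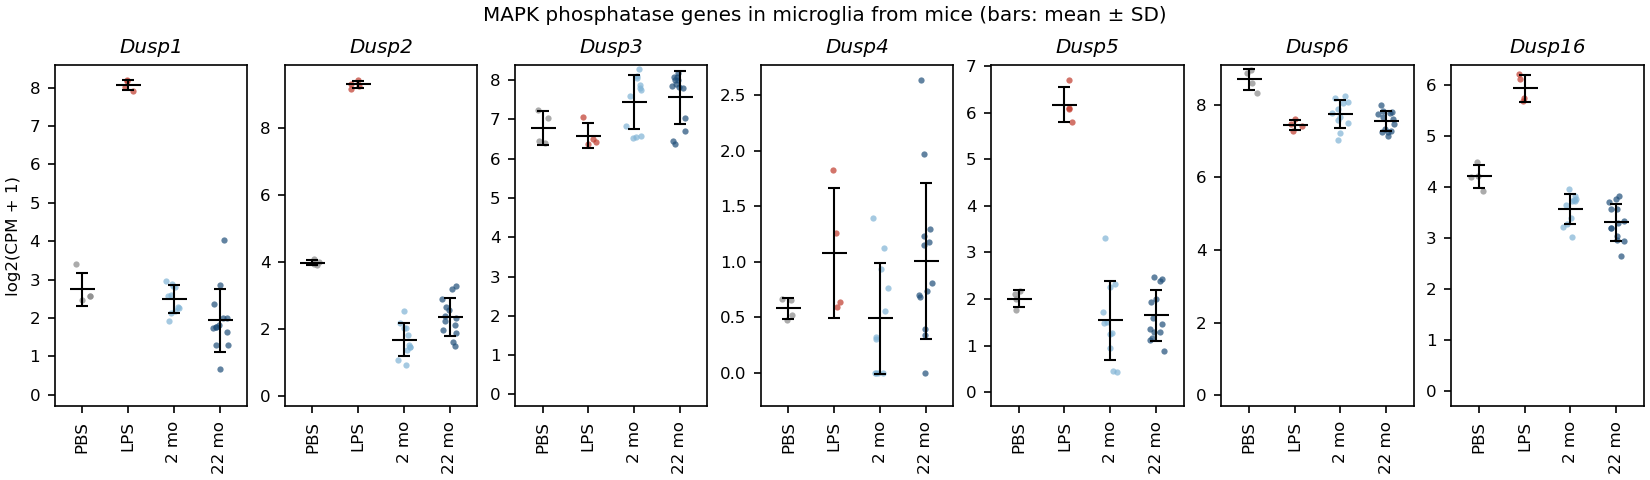
Each panel shows 1 gene, each point 1 mouse on a log2(CPM + 1) axis, and the bars the mean ± SD of the 4 PBS, 4 LPS, 11 young (2 mo) and 13 old (22 mo) mice. Dusp1, Dusp2, Dusp5 and Dusp16 lie higher in all 4 LPS mice than in all 4 PBS mice, Dusp6 lies lower, and the 2 ages overlap for every gene.

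Other genes of the pathway were taken from lists by function. The share of all genes called in this comparison was 22.4%, and the count of upstream kinases called lay near it. Of 11 tested immediate-early and AP-1 genes, 9 rose and none fell after LPS in mice, with a median log2 fold change of 3.36. The largest rises among them were those of Egr1 (mean of 9.72 to 430 CPM, log2 fold change 5.32) and Ier3 (27.02 to 854 CPM, 4.92). Of 13 kinases upstream of the MAPKs, 2 rose and 1 fell (median -0.06). Map3k8, the kinase that couples Toll-like receptors to ERK, went from 12.6 to 208 CPM (3.95) and Map2k3, a p38 kinase, from 48.9 to 236 CPM (2.25). Of 6 tested MAPKs, 3 fell and none rose (median -0.45), including Mapk14, which encodes p38 alpha, with -0.65. Of 5 tested p38 effectors, 3 rose (median 0.61), led by Zfp36, a destabilizer of cytokine mRNA, at 3.61. Of 3 other MAPK phosphatases tested, Dusp8 rose from 8.38 to 52.3 CPM (2.51) and Dusp7 fell from 106 to 31.4 CPM (-1.75). None of 4 tested ERK feedback inhibitors of the Sprouty and Spred families was called (median -0.01).

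In cultures treated for 4 h, the called phosphatases differed in part with the stimulus. Across 7 conditions set against CCL2 and CCL7, 28 of 49 member tests were called, where 12.2% of all gene tests were called, and all 28 calls held with plate as a term. Dusp1 and Dusp5 were higher with ATP, a damage signal read by purinergic receptors, and with norepinephrine. Dusp1 was also higher with nicotine, and Dusp2 with LPS_hi. Over the 7 conditions Dusp1 was called higher in 6 and Dusp5 in 5. These calls include Dusp1 with LPS_hi and norepinephrine (1.34, adjusted p = 0.0115 by limma) and Dusp5 with LPS_hi and nicotine (1.96, adjusted p = 0.00729 by limma). All 7 comparisons share the same reference cultures.

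With ATP, 3 of 7 members were called, where 4.03% of genes were called. Dusp5 was at 105 CPM in the lowest, 178 CPM in the median and 213 CPM in the highest of 5 ATP cultures, against at most 30.5 CPM in the CCL2 and 20.4 CPM in the CCL7 cultures. The groups were separate and the log2 fold change was 4.00 ± 0.68 (adjusted p = 6.04e-06 by limma, and 3.196 and 5.328 against CCL2 within the 2 plates, the second with 1 ATP culture). Dusp1 measured 48.1, 68.8, 103, 116 and 133 CPM with ATP, whereas the CCL2 and CCL7 cultures reached 18.8 and 16.6 CPM. These groups too were separate, with a log2 fold change of 3.10 ± 0.50 (adjusted p = 1.37e-06 by limma, and 2.72 and 2.32 within the same plates). Dusp6 was lower, at 0, 7.06, 15.5, 43.7 and 70.4 CPM with ATP against 28.7 to 126 CPM with CCL2 and 30.7 to 126 CPM with CCL7. The groups overlapped, the log2 fold change was -2.33 (adjusted p = 0.00212 by limma), and without the ATP culture listed at 0 (replicate 5) the value was -1.39 and no longer called.

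Norepinephrine gave Dusp5 levels of 66.2 CPM (lowest), 133 CPM (median) and 225 CPM (highest) in 7 cultures. None of these overlapped the reference cultures, and the log2 fold change was 3.53 ± 0.61 (adjusted p = 4.94e-06 by limma, and 2.55 and 4.86 within plates). Dusp1 with norepinephrine ran from 7.11 to 83.5 CPM with a median of 49.8 CPM. The lowest of these cultures lay within the reference range, and the log2 fold change was 1.93 (adjusted p = 0.00207 by limma, and 1.88 with plate as a term). With nicotine, Dusp1 ran from 25.5 through a median of 69.2 to 129 CPM in 8 cultures, all above the reference cultures (log2 fold change 2.78, adjusted p = 4.48e-07 by limma, and 2.75 and 2.29 within plates). Dusp5 with nicotine was at 4.44 to 43.2 CPM and was not called.

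LPS_hi for 4 h gave 3 called members, where 25.4% of genes were called. Dusp2 was at 217 CPM (lowest), 427 CPM (median) and 669 CPM (highest) in 7 cultures, against 0.884 to 28.1 CPM over the CCL2 and CCL7 cultures. The groups lay far apart, with a log2 fold change of 5.77 ± 0.49 (adjusted p = 2.17e-27 by limma, and 4.85 and 6.30 within plates). Dusp3 fell from 115 to 702 CPM over the reference cultures to 48.7 to 98.9 CPM, without overlap (log2 fold change -1.79, adjusted p = 1.18e-05 by limma, and -1.71 with plate as a term). Dusp6 ran from 2.41 through a median of 8.78 to 42.4 CPM, which overlapped the lowest reference cultures (log2 fold change -2.35, adjusted p = 1.73e-05 by limma, and -2.27 with plate as a term). Dusp1 was at 0 to 34.2 CPM with a median of 12.01 CPM, which covered the reference range (log2 fold change -0.05 by limma, not called). Dusp5, at 8.91 to 64.1 CPM, had a log2 fold change of 1.47 (adjusted p = 0.0517) and Dusp16, at 2.41 to 36.6 CPM, one of 1.10 (adjusted p = 0.0822). Both were called by limma with plate as a term, at 1.505 (adjusted p = 0.0183) and 1.12 (adjusted p = 0.0413). The median of all genes was -0.39 in this comparison. Under median-ratio scaling the Dusp1 value was 0.26, still not called, and Dusp5 and Dusp16 were called. The microglial marker sum was 2107 to 3249 CPM with LPS_hi and 3474 to 7770 CPM with CCL7, and the dissociation-response genes summed to 1831 to 2764 CPM with LPS_hi, 551 to 916 CPM with ATP, 391 to 540 CPM with CCL2 and 358 to 498 CPM with CCL7, so that LPS_hi and ATP both lay above the reference cultures. The 4 endothelial markers summed to a median of 165 CPM with ATP (12.97 to 186 CPM), 126 CPM with norepinephrine (13.9 to 177 CPM) and 91.5 CPM with nicotine (25.5 to 266 CPM), against 48.9 CPM with CCL2 and 32.7 CPM with CCL7, and Cldn5 was at 0 in every one of these cultures. The 4 fibroblast markers had medians of 116 CPM with ATP, 83.1 CPM with norepinephrine, 66.4 CPM with CCL2 and 80.8 CPM with CCL7, and Lum was at 0 throughout. The part of these signals in the phosphatase values was not tested.

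The listed pathway genes were mixed after 4 h in culture. All genes were called at a share of 25.4% with LPS_hi, 4.03% with ATP and 3.89% with norepinephrine. With LPS_hi, 4 of 13 immediate-early and AP-1 genes rose and 3 fell (median 0.15), with Junb at 2.81 and Fos at -1.83. With ATP 3 of the 13 rose and none fell (median 1.196), and with norepinephrine 4 rose and 2 fell (median 0.27). Map3k8 was among 2 of 13 upstream kinases that rose with LPS_hi (2.87), whereas 3 fell. In the p38 effector list 2 of 6 rose with LPS_hi, Zfp36 (3.40) and Mapkapk2 (2.64), and 1 fell.

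Adding ATP or nicotine to LPS_hi raised Dusp1 over LPS_hi alone. Across 19 pairs of a mixture and its LPS dose, 5 of 133 member tests were called, where 1.16% of gene tests were called. Dusp1 was at 65.7 to 128 CPM with LPS_hi and ATP (median 85.6 CPM, 6 cultures) against at most 34.2 CPM with LPS_hi, so that the groups were separate (log2 fold change 3.15, adjusted p = 2.89e-06 by limma, and 3.66 and 2.87 within plates). With LPS_hi and nicotine it was at 47.9 to 167 CPM (median 92.8 CPM, 8 cultures), again without overlap (3.19, adjusted p = 6.69e-07 by limma, and 3.15 with plate as a term). With norepinephrine added the Dusp1 difference was 1.40 (adjusted p = 0.160 by limma), called with plate as a term (1.35, adjusted p = 0.0430). Dusp5 with ATP added to LPS_hi had a difference of 2.38 (adjusted p = 0.0553 by limma), likewise called with plate as a term (2.42, adjusted p = 0.00943). Dusp4 rose with ATP from 0.247 to 11.1 CPM under LPS_hi to 19.9 to 55.8 CPM (2.80, adjusted p = 0.0149 by limma, and 2.31 and 3.29 within plates). Dusp2 was at 153 to 307 CPM with LPS_hi and ATP. Its log2 fold change against LPS_hi was -1.02 (adjusted p = 0.579 by limma, and -0.86 with plate as a term), which was not called. Set against CCL2 and CCL7, LPS_hi with ATP was the condition with all 7 members called (17.4% of genes), 5 of them higher and Dusp3 and Dusp6 lower.

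The same 7 conditions set against untreated cultures at 24 h gave 29 of 49 member calls, where 14.7% of gene tests were called. Time and treatment differ together in that comparison. It kept Dusp5 with ATP (log2 fold change 4.06) and with norepinephrine (3.59), Dusp1 with ATP (2.15) and nicotine (1.83) and Dusp2 with LPS_hi (6.61), all by limma. Dusp1 with norepinephrine was not called there (0.98, adjusted p = 0.109 by limma), nor with LPS_hi and norepinephrine (0.40). Both were called with plate as a term (1.64 and 1.10). Dusp1 with LPS_hi alone was at -0.998 and not called (-0.25 with plate as a term).

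**Figure D2:**
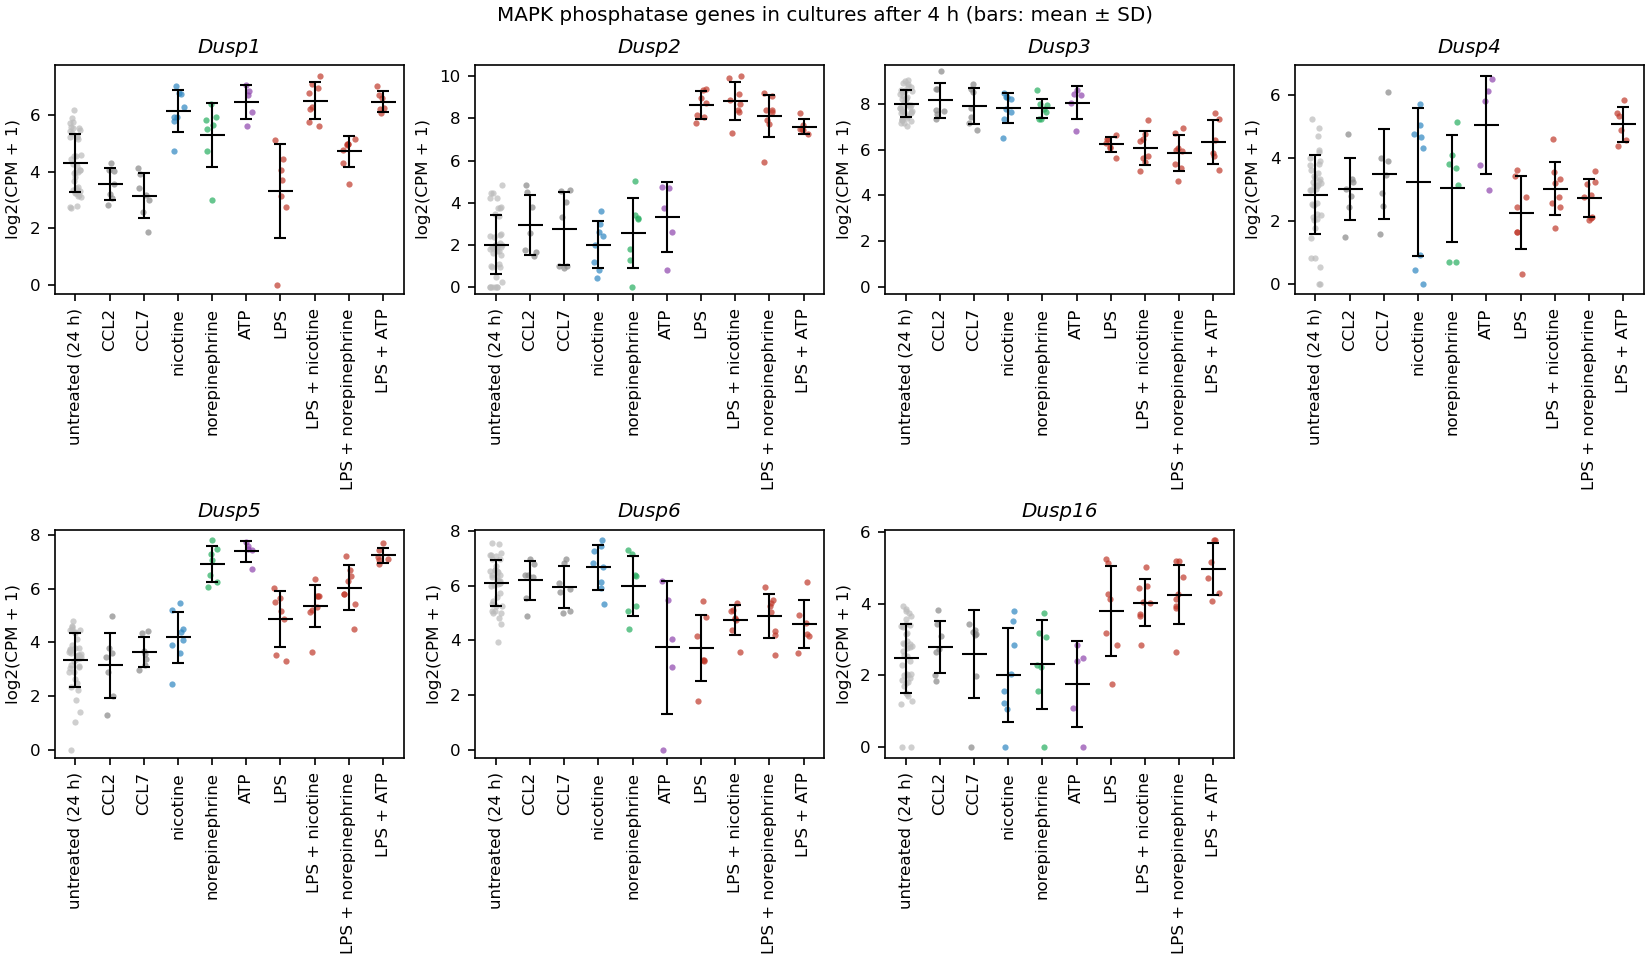
Each panel shows 1 gene and each point 1 culture after 4 h on a log2(CPM + 1) axis, with untreated cultures at 24 h at the left and mean ± SD as bars; red points are LPS_hi with or without a second agent. Dusp2 is high in all LPS groups, and Dusp5 is highest in the ATP and norepinephrine groups with or without LPS. Dusp1 is high in the nicotine, norepinephrine and ATP groups and in LPS with nicotine or ATP, but not in LPS alone. Dusp1 in LPS with norepinephrine and Dusp5 in LPS with nicotine rose less and were also called against CCL2 and CCL7.

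Over time in LPS_hi, Dusp2 was highest at 4 h and low at 72 h, whereas Dusp1 and Dusp6 were lower at 4 h than at 24 h. Comparing LPS_hi cultures among times, 7 of 14 member tests were called, where 13.9% of gene tests were called (14.7% for 4 h against 24 h and 13.1% for 72 h against 24 h). Dusp2 was at 10.8 to 278 CPM at 24 h (median 59.5 CPM, 18 cultures) and at 0 to 8.54 CPM at 72 h (median 0.270 CPM, 13 cultures, 6 of them listed at 0). The 4 h values overlapped those at 24 h and the 72 h values did not. Its log2 difference was 2.69 ± 0.47 at 4 h and -5.13 ± 0.38 at 72 h, each against 24 h (adjusted p = 6.54e-07 and 2.11e-33 by limma).

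Dusp16 in LPS_hi had medians of 16.5, 33.3 and 10.7 CPM at 4, 24 and 72 h, with overlapping ranges. The difference from 24 h was -1.86 at 72 h (adjusted p = 5.63e-05 by limma) and -1.28 at 4 h (adjusted p = 0.0462), the latter not called with plate as a term (-0.93). Dusp1 was lower at 4 h than at 24 h, where 18 cultures ran from 16.6 to 112 CPM, by a log2 difference of -2.42 (-1.26 with plate as a term, both called by limma). Dusp6 differed by -1.76 at 4 h (-1.25 with plate). Dusp5 was lower at 72 h than at 24 h by -1.51 (adjusted p = 0.0125 by limma). No plate term could be given for 72 h against 24 h, since those times were on different plates apart from valproic acid cultures. The untreated cultures of those plates also differed in cell lot, as given next.

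Untreated cultures also differed between 72 and 24 h, with 2 of 7 members called where 7.32% of genes were called. Dusp2 ran from 0 to 27.3 CPM at 24 h (median 2.75 CPM) and from 0 to 4.25 CPM at 72 h (median 0.129 CPM), overlapping ranges with a log2 difference of -1.48. Dusp5 had medians of 10.4 and 3.57 CPM and a difference of -1.15, also with overlap. Time, plate and lot of cells cannot be told apart over all these cultures. The untreated cultures at 72 h all came from 1 lot, whereas those at 24 h came from 3. In that lot, the 8 untreated cultures at 24 h had means of 3.13 CPM for Dusp2 and 4.09 CPM for Dusp5. Its plate means at 72 h ran from 0.0133 to 1.48 CPM for Dusp2 and from 2.52 to 9.98 CPM for Dusp5. The part of the lot in these differences was not tested.

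The LPS dose made no called difference. Of 14 member tests of LPS_hi against LPS_lo, 0 were called by limma, where 2.58% of gene tests were called, and 1 had an unadjusted p under 0.05 (Dusp4 at 24 h, p = 0.0430 by limma). The exact rank-sum test also called 0, but at 24 h its smallest possible corrected p was 0.0705. The log2 difference at 24 h was 0.15 ± 0.47 for Dusp2 and 0.08 ± 0.43 for Dusp1, and with plate as a term it was 1.16 ± 0.42 and -0.61 ± 0.37. None of these was called.

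**Figure D3:**
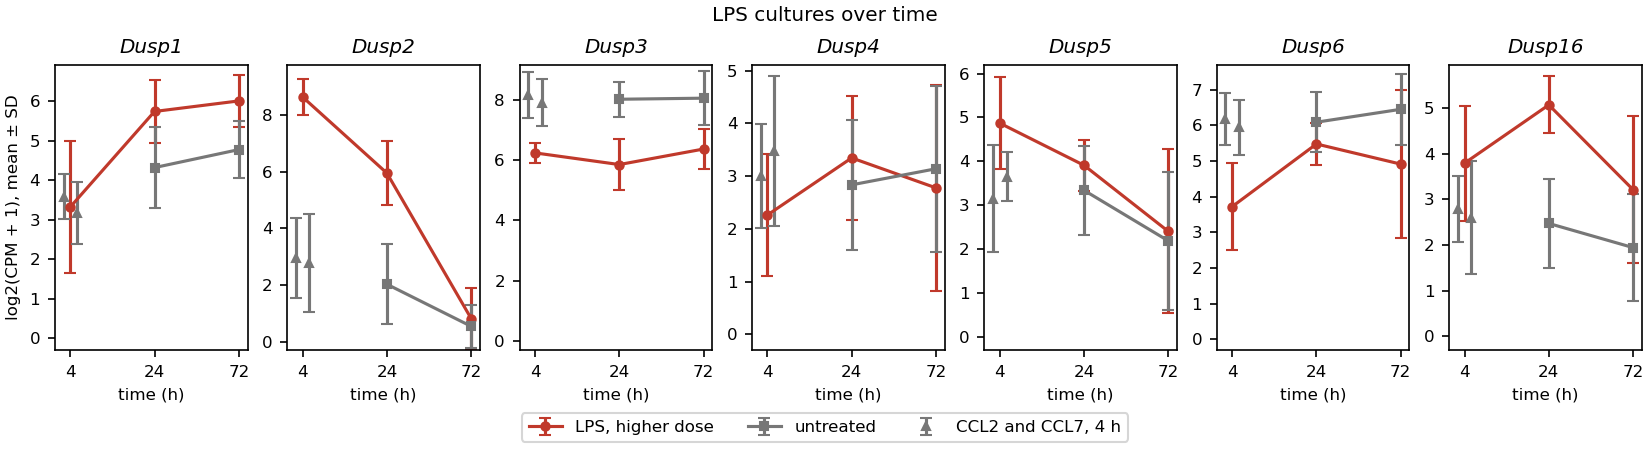
Mean ± SD of log2(CPM + 1) for each gene at 4, 24 and 72 h in LPS_hi cultures (red; 7, 18 and 13 cultures), untreated cultures at 24 and 72 h (grey squares; 40 and 25) and CCL2 and CCL7 cultures at 4 h (grey triangles; 7 each). Dusp2 drops from 4 h to 72 h in LPS_hi, and Dusp3 lies under its references at all 3 times.

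At 24 h, 38 single stimuli were compared with the 40 untreated cultures that they share. Of 266 member tests 33 were called, where 3.05% of gene tests were called. Members rose in 19 tests, where 1.16% of gene tests were called higher, and fell in 14, where 1.89% were called lower. With plate as a term 21 of the 33 calls held and 5 others were gained: Dusp6 with dopamine (-1.13) and IFNg (-1.16), Dusp3 with IFNg (-1.21) and TNFa (-1.01), and Dusp1 with TGFb (-1.11). Among the inducible nuclear phosphatases, Dusp1 rose with 10 stimuli and fell with none, Dusp2 rose with 3 and fell with 4, Dusp4 rose with 2, and Dusp5 rose with 1 and fell with 1. Dusp6 fell with 3 stimuli, Dusp3 fell with 6, and Dusp16 rose with 3.

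With LPS_hi at 24 h 4 members were called, where 16.2% of genes were called. Dusp2 in the untreated cultures ran from 0 through a median of 2.75 to 27.3 CPM and in the LPS_hi cultures from 10.8 through 59.5 to 278 CPM. The ranges overlapped at their ends, and the log2 fold change was 3.92 ± 0.30 (adjusted p = 1.32e-33 by limma, and 1.94 to 5.55 within 6 plates). Dusp16 went from 0 to 14.1 CPM (median 5.12 CPM) to 13.3 to 75.3 CPM (median 33.3 CPM), which overlapped at the edge only (2.60 ± 0.30, adjusted p = 3.09e-15 by limma, and 1.46 to 3.51 within plates). The plate with 3.51 held 1 LPS_hi culture. Dusp3 went from 129 to 534 CPM (median 248 CPM) to 21.4 to 183 CPM (median 60.1 CPM), with overlap (-2.17 ± 0.22, adjusted p = 7.07e-20 by limma, and -3.05 to -0.97 within plates). The fall of Dusp3 stood beside a fall of microglial markers: those called lower included Fcrls (-3.90), Cx3cr1 (-3.22), Tmem119 (-2.23), Csf1r (-2.02) and P2ry12 (-1.56), and their part in the Dusp3 value was not tested.

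Dusp1 in untreated cultures ran from 5.57 through a median of 16.6 to 72.2 CPM and in LPS_hi cultures from 16.6 through 59.0 to 112 CPM. The ranges overlapped broadly, with a log2 fold change of 1.42 ± 0.27 (adjusted p = 2.80e-06 by limma) and 1.01 with plate as a term. Inside the 6 plates the difference was -0.14, 0.94, 2.28, 0.34, 1.44 and 2.85, so that 1 plate with 6 LPS_hi and 6 untreated cultures showed no rise. The third of these plates held 1 LPS_hi culture. LPS_lo gave the same 4 called members, where 15% of genes were called. Their log2 fold changes were 1.34 for Dusp1, 3.77 for Dusp2, -2.32 for Dusp3 and 2.17 for Dusp16, all called also with plate as a term.

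P3C at 24 h, where 20.1% of genes were called, gave 4 called members. Dusp16 was at 14.1 to 38.2 CPM (median 19.5 CPM; 2.04 by limma), Dusp3 at 18.5 to 127 CPM (-2.49) and Dusp6 at 5.41 to 37.6 CPM (-1.86) in 6 cultures, the Dusp3 values all under the lowest untreated culture. With plate as a term these were 2.45, -2.02 and -1.33. Dusp2 was at 4.39 to 24.98 CPM with P3C (1.39, and 2.31 with plate as a term), within the untreated range. Dusp1 was not called with P3C (-0.44 by limma).

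Nicotine at 24 h had the highest Dusp1 fold change of the 38 stimuli, though not with plate as a term, where polyIC (1.66) and LPS_lo (1.62) were above it. Dusp1 with nicotine was at 51.4 CPM in the lowest, 89.7 CPM in the median and 186 CPM in the highest of 8 cultures. Its range overlapped the upper untreated cultures, and the log2 fold change was 2.36 ± 0.37 (adjusted p = 3.93e-07 by limma, and 1.48 with plate as a term, and 0.68, 2.20 and 1.79 within 3 plates). PolyIC (1.17), IFNa (1.04) and IFNb (1.04) also raised Dusp1, and their values within plates were 1.58 and 1.76, 1.42 and 1.33, and 0.94, 0.93 and 1.60. The Dusp1 calls with dopamine (1.65), MPP (1.38), PA (1.94) and s100B (1.51) did not hold with plate as a term, where the values were 0.89, 0.50, 0.93 and 0.75. With s100B, for example, 2 plates gave 0.43 and 0.30 and the third gave 1.64.

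**Figure D4:**
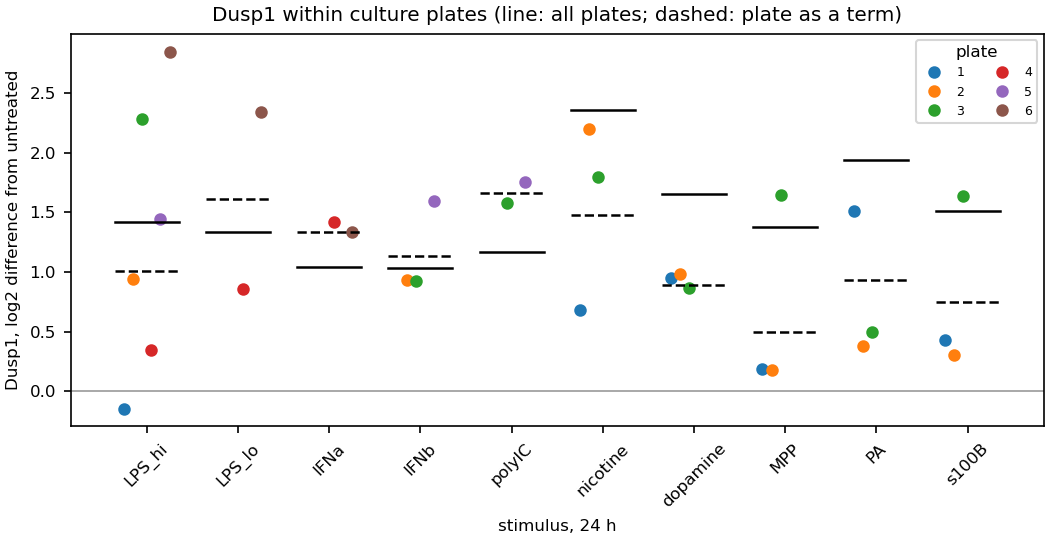
Difference of mean log2(CPM + 1) of Dusp1 between stimulated and untreated cultures at 24 h inside each of 6 plates (colored points), for the 10 stimuli with a Dusp1 call; the solid line is the value over all plates and the dashed line the value with plate as a term. For LPS_hi the plates run from -0.14 to 2.85, and for dopamine, MPP, PA and s100B the dashed line lies well under the solid one.

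Dusp4 rose with MPP, a mitochondrial toxin, where 4.72% of genes were called, and with IL4. Untreated cultures ran from 0 through a median of 7.67 to 36.7 CPM. The 8 MPP cultures ran from 29.4 through 41.9 to 105 CPM, which overlapped only the upper untreated cultures (2.76 ± 0.52, adjusted p = 2.02e-05 by limma, and 2.11, 2.54 and 3.69 within plates). The 11 IL4 cultures ran from 14.3 through 21.1 to 38.7 CPM, which overlapped the upper untreated cultures (1.75 ± 0.46, adjusted p = 0.00630 by limma, and 1.56, 1.56 and 1.58 within plates). Dusp6 was lower with MPP (5.90 to 51.6 CPM, -1.35) and with IFNa (1.76 to 83.9 CPM, -1.35), both called by limma also with plate as a term.

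Dusp5 at 24 h was called higher with dopamine (7.58 to 77.4 CPM, 1.89) and lower with valproic acid (0 to 8.502 CPM, -1.9995), and neither held with plate as a term (1.32 and -1.69). The 4 falls of Dusp2, with IFNb (-1.21), IFNg (-1.08), MPP (-1.21) and valproic acid (-1.62), started from an untreated median of 2.75 CPM and did not hold with plate as a term. Dusp3 fell with polyIC (17.6 to 158 CPM, -1.75), IFNb (-1.13) and valproic acid (-1.44) in addition to LPS and P3C, and of these 3 the polyIC call held with plate as a term.

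The same lists were read in LPS_hi cultures at 24 h, where 16.2% of all genes were called. Of 13 tested immediate-early and AP-1 genes 2 rose and 2 fell (median 0.23), with Ier3 higher (20.9 to 98.3 CPM, 2.43) and Egr2 lower (52.1 to 6.10 CPM, -2.70). Map3k8 was the 1 gene called among 13 upstream kinases (5.57 to 23.2 CPM, 2.12; list median 0.02), and 0 of 8 MAPKs was called by limma (median -0.03). Among 6 p38 effectors Mapkapk3 (-1.74) and Zfp36l1 (-2.12) were lower and 2 others higher (list median 0.04). Dusp7 (-1.66) and Dusp9 (-1.51) of 4 other MAPK phosphatases (median -0.95) and Spry2 (-1.29) of 6 ERK feedback inhibitors (median -0.18) were lower. The median of all genes was -0.14.

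At 72 h, 26 stimuli (the IL4, IL10 and IL13 mixture among them) were compared with 25 untreated cultures that they share, and falls of Dusp6 and Dusp3 made up most of the calls. Of 182 member tests 25 were called, where 5.82% of gene tests were called. Members rose in 5 (2.57% of gene tests were called higher) and fell in 20 (3.24% were called lower), and 22 of the 25 calls held with plate as a term. That fit gained 8 others: Dusp6 with eotaxin (-1.59) and LPS_lo (-1.01), Dusp1 with polyIC (1.15) and PA (-1.14), Dusp5 with polyIC (1.84), Dusp3 with IL13 (1.30), and Dusp16 with P3C (1.27) and MPP (-1.40). Dusp6 fell with 10 stimuli and Dusp3 with 8. Dusp1 rose with 2 and fell with 1, Dusp5 rose with 2, Dusp16 rose with 1, Dusp4 fell with 1, and Dusp2, at a median of 0.129 CPM in untreated cultures, was not called.

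Dusp6 in untreated cultures at 72 h ran from 25.3 through a median of 87.5 to 424 CPM. With IFNg 6 cultures ran from 0 through 23.9 to 47.8 CPM, which overlapped the lower untreated cultures (-2.77 ± 0.47, adjusted p = 3.93e-07 by limma, and -1.56 and -3.66 within plates). With polyIC they ran from 2.34 through 12.5 to 60.04 CPM (-2.46; -2.17 and -2.08 within plates). The 6 cultures with the IL4, IL10 and IL13 mixture ran from 2.05 through 14.1 to 38.4 CPM (-2.60). IL4 alone gave 6.47, 18.8 and 24.2 CPM in 3 cultures, all under the lowest untreated culture (-2.49, adjusted p = 0.00558 by limma, and -1.97 and not called without replicate 3). P3C gave 1.09 to 47.7 CPM (-2.11). IFNa gave 8.37 to 60.9 CPM (-1.90) and MPP 11.2 to 34.6 CPM (-1.91), and both held with plate as a term (-1.53 and -1.64). HDL (-1.91) and GABA (-1.41) did not hold with plate as a term (-1.38 and -0.96). LPS_hi gave 0 to 184 CPM, which covered much of the untreated range (-1.54, adjusted p = 0.000203 by limma), and inside 4 plates the difference was -0.61, -0.43, -3.10 and 0.90.

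Dusp3 at 72 h ran from 94.0 through a median of 237 to 736 CPM without treatment. LPS_hi gave 44.8 to 209 CPM (-1.69 ± 0.27, adjusted p = 1.16e-08 by limma), with overlap and with -1.16, -1.53, -1.46 and -1.01 inside the 4 plates. MPP gave 36.3 to 79.9 CPM, all under the untreated cultures (-2.13), and IFNa 36.6 to 189 CPM (-1.93). IFNg gave 22.9 to 198 CPM (-1.33), LPS_lo 58.3 to 204 CPM (-1.12) and P3C 24.7 to 238 CPM (-1.16), all overlapping the untreated cultures, and HDL 44.4 to 436 CPM (-1.28). The HDL call did not hold with plate as a term (-0.68), and the other calls of Dusp3 did. TNFa gave 99.4, 547 and 16.9 CPM in 3 cultures of 1 plate, a spread wider than the difference (-1.42). It was no longer called without replicate 1 or replicate 3. Without replicate 3 the value was -0.18.

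Dusp1 at 72 h ran from 6.12 through 24.1 to 69.9 CPM in untreated cultures. IFNa gave 35.9 to 290 CPM with a median of 103 CPM, which overlapped the upper untreated cultures (1.87 ± 0.41, adjusted p = 0.000280 by limma, and 1.56 and 2.39 within plates). LPS_hi gave 29.2 to 121 CPM with a median of 72.3 CPM (1.23, adjusted p = 0.00181 by limma, and 0.62 to 1.82 within 4 plates). In this comparison 2705 of 16942 genes were called. GMCSF gave 1.39 to 36.6 CPM with a median of 9.68 CPM (-1.44). Dusp16 with LPS_hi was at 0 to 34.9 CPM against 0 to 30.4 CPM (1.27, adjusted p = 0.00447 by limma), broadly overlapping ranges.

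Dusp5 at 72 h rose with HDL and with PGE2, a prostaglandin. Untreated cultures ran from 0 through 3.57 to 20.3 CPM, HDL cultures from 11.5 through 25.6 to 55.6 CPM (2.42, adjusted p = 0.00486 by limma) and PGE2 cultures from 0.433 through 24.0 to 65.9 CPM (1.78, adjusted p = 0.0134 by limma). The HDL range overlapped the untreated range in part and the PGE2 range spanned it. Both calls held with plate as a term (2.89 and 1.72), and neither held in a separate fit of the 72 h cultures. Dusp4 was listed at 0 in all 3 TNFa cultures, against 0 to 60.2 CPM in untreated cultures with 1 of 25 at 0. That difference was called, in a comparison of 3 cultures in which 27.7% of all genes were called, and no fold is given against a group at 0. The call was lost with library pool as a term. It was also lost without cultures under 2 M reads, a setting that left only the deepest TNFa culture. Mapped depth of the TNFa cultures was 1.98 M reads in the lowest and the median and 2.36 M in the highest.

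**Figure D5:**
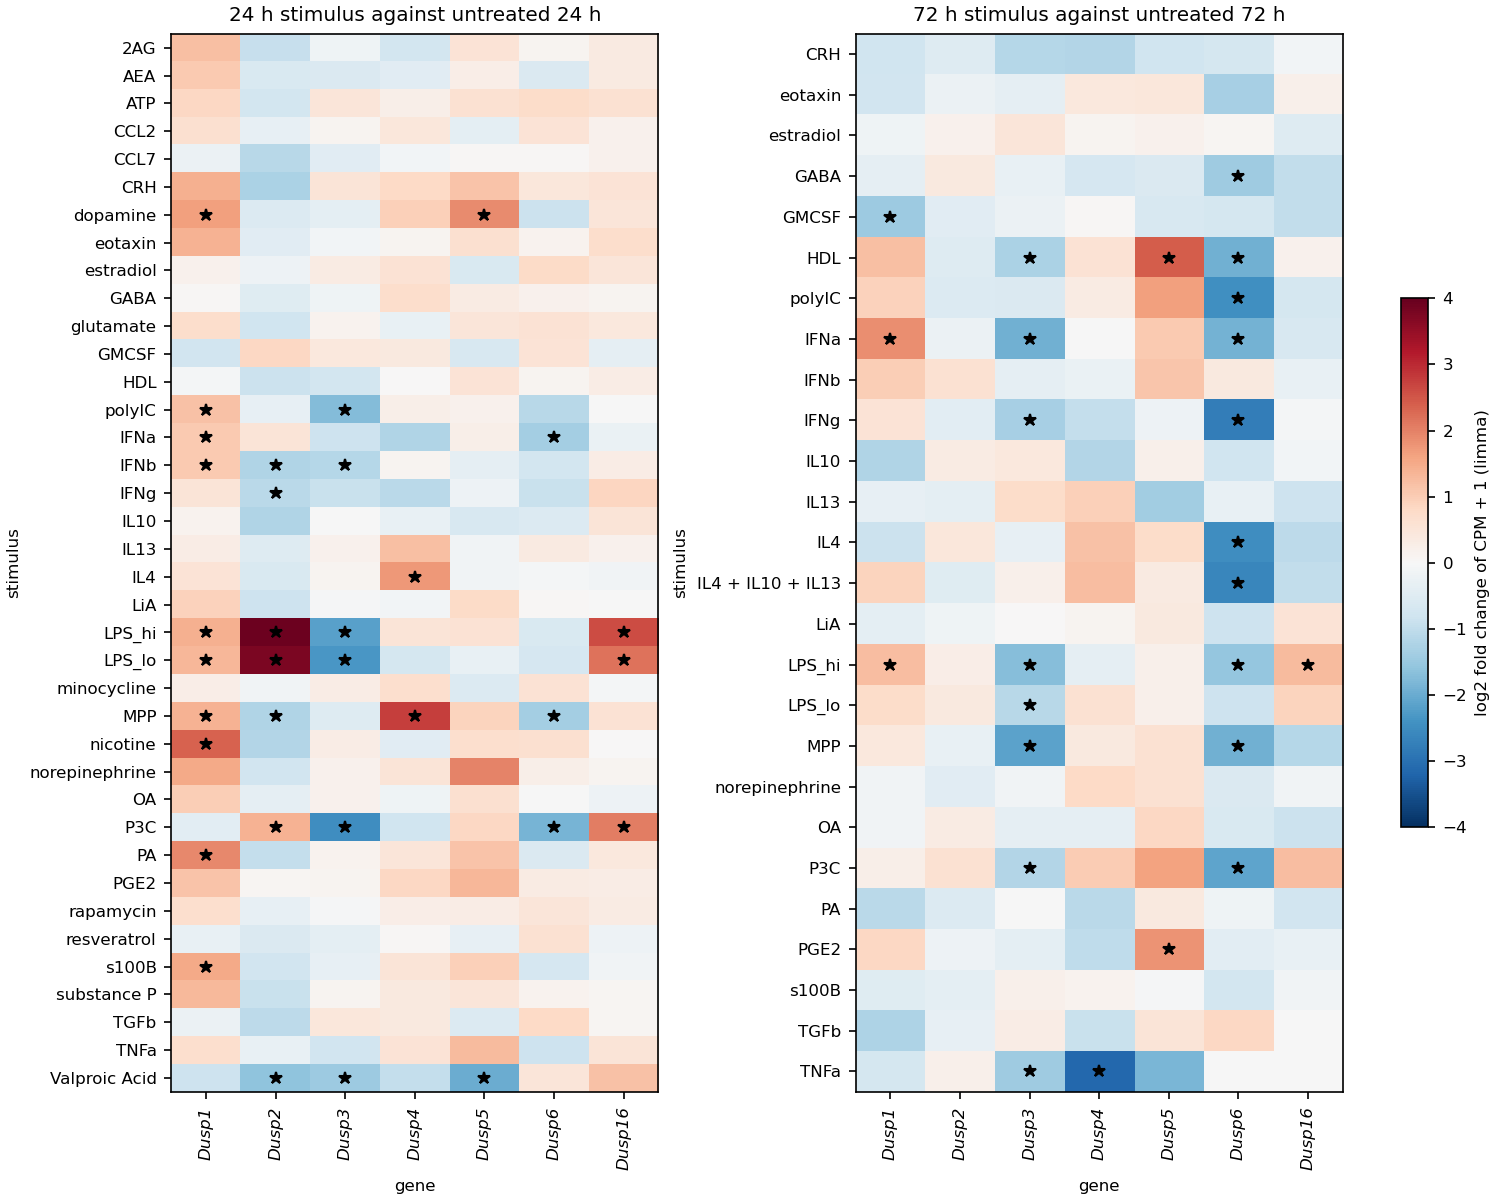
Color gives the log2 fold change of each gene (columns) with each stimulus (rows) against untreated cultures at 24 h (left, 38 stimuli) and 72 h (right, 26); red is higher, blue is lower, the scale ends at ±4, and a star marks a call. Stars at 24 h are spread over all 7 genes, 10 of them on Dusp1, and at 72 h 18 of 25 lie on Dusp3 and Dusp6.

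Of agents added to LPS_lo at 72 h, 2 gave a called member. All genes were called at a share of 2.5% with IFNg added and 2.92% with TGFb added. Dusp6 was at 25.2 to 83.4 CPM with LPS_lo (median 50.9 CPM, 11 cultures) and at 0 to 28.3 CPM with LPS_lo and IFNg (median 14.98 CPM, 7 cultures), a slight overlap (-2.78 ± 0.50, adjusted p = 6.65e-06 by limma, and -1.65 and -4.16 within plates). Dusp1 was at 23.7 to 65.9 CPM with LPS_lo and at 0 to 29.3 CPM with LPS_lo and TGFb (-2.23 ± 0.45, adjusted p = 0.000110 by limma, and -1.70 and -2.94 within plates). With plate as a term Dusp3 was also called, higher with IL4, IL10 and IL13 added (1.24, adjusted p = 0.0204 by limma, against 0.62 without that term). At 24 h no member was called for any agent added to LPS, where 0.0295% to 0.815% of all genes were called per comparison.

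In 6 steps through mixtures of TNFa, P3C, PGE2, IFNb and IFNg at 72 h, 6 of 42 member tests were called, where 11.1% of gene tests were called, a share of members near that of all genes. The share of all genes was 27.3% where IFNg and 26.7% where PGE2 was added to TNFa. Dusp6 had a median of 32.1 CPM with P3C, of 2.90 CPM with TNFa and P3C (3 of 7 cultures at 0) and of 31.3 CPM once PGE2 was added, with overlapping ranges. The steps were -2.14 and 2.19 (adjusted p = 0.0253 and 0.00477 by limma), and neither was called without the cultures under 2 M reads (-0.50 and 0.55). Against TNFa alone, whose 3 cultures held Dusp5 at 0, 0.505 and 0.424 CPM, Dusp5 was higher with PGE2 added (4.16 to 106 CPM, 4.61) and with IFNg added (2.81 to 22.1 CPM, 2.86), both groups lying above all 3. From a reference this near 0 the fold sizes depend on the pseudocount. Over the alternatives these log2 fold changes of Dusp5 ran from 2.81 to 5.30 with PGE2 and from 1.38 to 3.51 with IFNg. Dusp4, listed at 0 with TNFa, was at 1.81 to 33.9 CPM with PGE2 added, also a call. The calls of Dusp5 with IFNg and of Dusp4 with PGE2 were lost without cultures under 2 M reads, which left only the deepest TNFa culture. They were also lost with library pool as a term, where Dusp5 had 1.90. Dusp6 went from 96.2, 80.3 and 81.4 CPM with TNFa to 6.51 to 36.4 CPM with IFNg added (-1.85, adjusted p = 0.0331 by limma), without overlap, and was no longer called when any 1 of the 3 TNFa cultures was left out.

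The change of an effect between 24 and 72 h was tested for 25 stimuli present at both times. The untreated cultures used there differed in cell lot between the times, as given above. Of 175 member tests 11 were called, where 3.24% of gene tests were called. The log2 effect at 72 h minus that at 24 h was negative in all 11. These cover weaker rises, changes of sign and stronger falls at 72 h. The clearest were those of Dusp2 with LPS_hi, whose log2 fold change against untreated cultures was 3.92 at 24 h and 0.28 at 72 h (difference -3.65 ± 0.47, adjusted p = 1.91e-11 by limma), and with LPS_lo (3.77 and 0.39; -3.38). Dusp4 with MPP went from 2.76 to 0.39 (-2.37) and Dusp6 with IFNg from -0.89 to -2.77 (-1.88), and both calls were near the threshold. The Dusp4 call was lost under 5 alternatives, among them median-ratio scaling (-2.10) and library pool (-1.74), and the Dusp6 call under 5, among them leaving out cultures under 2 M reads (-0.84). Of the 11 calls 6 held with plate as a term, and that fit gained 4 others.

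In aged mice no member was called. Dusp3, Dusp6 and Dusp16 were tested, 0 of 3 were called by limma where 10.8% of genes were called, 0 had an unadjusted p under 0.05 and the exact rank-sum test called 0. Dusp6 was at 128 to 299 CPM at 2 months (median 216 CPM) and at 140 to 255 CPM at 22 months (median 194 CPM), with a log2 difference of -0.18 ± 0.12. Dusp3 ran from 90.7 to 308 CPM at 2 months and from 81.6 to 289 CPM at 22 months (0.04 ± 0.08), and its level followed the run of library numbers: 81.6 to 130 CPM in the first run of 8 mice and 192 to 308 CPM in the second run of 16. Dusp16 was at 7.11 to 14.6 CPM and 5.27 to 13.1 CPM (-0.28 ± 0.15). It was at 9.53 to 14.6 CPM at 2 months and 5.27 to 7.20 CPM at 22 months in the first run, without overlap, and at 7.11 to 13.2 and 8.16 to 13.1 CPM in the second. Dusp1 was at 2.77 to 6.75 CPM at 2 months and at 0.584 to 15.5 CPM at 22 months, and Dusp2 at 0.912 to 4.83 and 1.84 to 8.75 CPM. Dusp5 was at 0.355 to 8.89 and 0.847 to 4.57 CPM and Dusp4 at 0 to 1.63 and 0 to 5.23 CPM. These 4 were above 5 CPM in too few mice to be tested, and their ages overlapped. Of the 9 tested immediate-early and AP-1 genes, Atf3 was higher (0.53) and Jun lower (-0.49) at 22 months. Among 5 p38 effectors Mapkapk3 (0.41) and Mapkapk2 (0.30) were higher and Zfp36l1 (-0.39) lower, and Map3k1 (-0.25) of 13 upstream kinases and Spred1 (-0.37) of 5 feedback inhibitors were lower. None of 6 MAPKs and 2 other MAPK phosphatases was called. Neutrophil markers summed to 150 to 1213 CPM at 2 months and to 322 to 4045 CPM at 22 months, and their part in these values was not tested.

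Over the 97 culture conditions with at least 3 cultures, the mean log2 level of each member formed a nearly continuous order, in which at most 1 of 96 neighboring pairs per gene differed by more than the SD. Dusp1 stood highest with nicotine for 24 h and IFNa for 72 h and lowest with CCL7 for 4 h. The 4 highest places of Dusp2 were the LPS_hi conditions at 4 h, and it was listed at 0 in all cultures with polyIC or PA for 72 h. Dusp5 stood highest with ATP, LPS_hi with ATP, and norepinephrine at 4 h, and the gap under these 3 (0.89 on the log2 scale) was the 1 gap above the SD. Dusp6 stood highest with TGFb for 72 h (143 to 168 CPM in 4 cultures), apart from the next condition, and lowest with TNFa and P3C. Dusp3 was highest with IL13 for 72 h and lowest with LPS_lo and rapamycin for 24 h. Dusp4 was highest with MPP for 24 h and Dusp16 with LPS_lo and rapamycin for 24 h.

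Genes with the most similar levels over the 97 conditions are given as a description, since conditions share plates, pools and untreated cultures. Dusp2 was most like the cytokine genes Il12b (Pearson r = 0.93), Il6 (0.92) and Ccl22 (0.92). Dusp16 was most like Spaca6 (0.83), Il1a (0.80) and Fscn1 (0.78), and Dusp3 like Soat1 (0.87), Mtss1 (0.83) and Rasgrp3 (0.83). The genes most like Dusp6 included Svil (0.75) and the microglial receptor gene P2ry12 (0.72), and Dusp5 was most like Cav1 (0.72), Kdm6b (0.71) and Sdc1 (0.71). The nearest genes were less similar for Dusp4 (Gnl3, 0.59; Fam129b, 0.57; Fdx1l, 0.54) and Dusp1 (the heat shock gene Hspa1a, 0.53; Fam46a, 0.52; Tiparp, 0.50). Among the members, r ran from -0.56 between Dusp3 and Dusp16 to 0.76 between Dusp2 and Dusp16.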

How the data were processed

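Processed tables of 784 cultures and 32 mice were analyzed. As deposited, the values are in CPM by their construction, although the study calls them TPM: the authors ran Salmon 0.7.1 on Ensembl transcripts with automatic library type detection, summed reads per gene, scaled them to all mapped reads and discarded shallow libraries. The values are not corrected for gene length. The submitters' processing notes name mm8, so coordinates here come from GENCODE (GRCm38) and RefSeq. Whole reads could not be recovered for all low values (70.2% or more were whole per culture), so no count test was run.

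Groups came from the labels. Tests used limma 3.58.1 in R 4.3.3 on log2(CPM + 1), with 1 fit over all cultures and 16942 genes above 5 CPM in at least 4 cultures, and separate fits for the LPS mice (9012 genes, 4 mice) and the aging mice (9632 genes, 11 mice, run of library numbers as a term). P-values were adjusted over all genes per comparison. Scripts were tested on simulated data. The members and gene lists were chosen with earlier results of these data known. Members were followed in every comparison and calls described first, with up to 3 most similar genes of each and up to 2 called genes per list; some genes under this rule are not reported here. One 72 h culture named LPS_hi but labelled with the low dose entered no comparison. Alternatives covered pseudocount, filters, scaling, plate, pool, depth, left-out samples and an exact rank-sum test with Bonferroni correction. Replicates of cultures carry no donor, and the precision of values is limited by mapped depth (1.00 to 38.2 M reads).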

Additional observations from a re-analysis of the deposited data

Results flagged for a closer look

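Groups of 4 to 10 samples were examined in 109 sets of 1 gene in 1 group. These were stimulated groups with a call for that gene, and the PBS, LPS, CCL2 and CCL7 groups at 4 h for all members. In 10 sets 1 sample, in each case the highest, stood apart from the others by Dixon's 95% critical value on CPM. That value flags about 1 in 20 sets when values are normally distributed, which was not shown for CPM. In mice these were a PBS mouse with 9.50 CPM of Dusp1 (the others 4.51 to 4.93 CPM) and an LPS mouse with 132 CPM of Dusp3 (81.2 to 89.1 CPM), both replicate 3 of their groups. At 4 h they were cultures with 25.96 CPM of Dusp4 (CCL2), 66.6 CPM of Dusp4 (CCL7), 30.5 CPM of Dusp5 (CCL2), and, with LPS_hi and ATP, 307 CPM of Dusp2 and 68.5 CPM of Dusp6. At 72 h they were cultures with 36.6 CPM of Dusp1 (GMCSF), 436 CPM of Dusp3 (HDL) and 55.6 CPM of Dusp5 (HDL).

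The effect of a stimulus against untreated cultures differed between 24 and 72 h in 11 cases by the test of the difference in limma. Given as the log2 effect at 72 h minus that at 24 h, they were for Dusp1 -2.21 with CRH, -2.15 with eotaxin, -3.00 with PA and -1.99 with s100B. They were for Dusp2 -3.65 with LPS_hi and -3.38 with LPS_lo, for Dusp3 -1.62 with MPP, for Dusp4 -2.37 with MPP and -3.69 with TNFa, for Dusp5 -3.10 with TNFa and for Dusp6 -1.88 with IFNg. With plate as a term 5 of the 11 were not called, those of Dusp1 with CRH, eotaxin and s100B, of Dusp3 with MPP and of Dusp5 with TNFa. Dusp4 was listed at 0 in all 3 TNFa cultures at 72 h, so its value of -3.69 depends on the pseudocount and is no measure of size, and it was -1.91 and not called with library pool as a term.

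The culture named LPS_hi at 72 h but labelled with the low dose was left out of every comparison. It held 73.4 CPM of Dusp1 and 14.4 CPM of Dusp2, above the highest of the 25 untreated cultures at 72 h (69.9 and 4.25 CPM).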

How the results depend on the processing

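A set of 165 member values was recomputed under the alternatives that apply to each, which gave 1779 values. The set held all called values. Of the uncalled values it held only those of LPS_hi against its reference cultures and of the mice. Direction and side of the threshold were the same in 1536, 233 were no longer called, 8 became called, 2 uncalled values moved and 0 called values reversed. The 8 leave out calls gained among the other uncalled member tests. With plate as a term 2 became called in this set, whereas over all member tests that term gained 5 for single stimuli at 24 h and 8 at 72 h. Of the 233, 84 came from the exact rank-sum test, Bonferroni-corrected for the number of genes, 36 from library pool as a term, 23 from culture plate as a term, 20 from leaving out cultures under 2 M reads and 13 from leaving out 1 sample. Median-ratio scaling shifted member values by -0.20 to 0.39 (median 0.11).

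The rank-sum test gave 12 calls in place of 33 for single stimuli at 24 h, 1 in place of 25 at 72 h, 14 in place of 29 for 4 h against untreated 24 h, 0 in place of 5 for agents added to LPS, 0 in place of 6 for mixtures, 1 in place of 7 over LPS times, 0 in place of 2 for untreated cultures over time and 0 in place of 5 in LPS mice. For LPS mice, all mixtures, IL4 and TNFa at 72 h, the pairs with calls among agents added to LPS, and LPS_hi at 4 against 24 h, the groups were too small for that test to pass its correction (smallest possible corrected p of 0.0705 or more), so those losses say nothing about stability. For polyIC, IFNg, MPP, P3C and the IL4, IL10 and IL13 mixture at 72 h the smallest possible corrected p of that rank-sum test was 0.046. Only fully separate groups could pass there. Plate and pool as terms each gave 8 calls in place of 5 for agents added to LPS. Pool as a term gave 3 in place of 6 for mixtures, 2 in place of 4 for LPS_hi at 4 against 24 h, and 6 in place of 11 for changes of an effect between times. A pseudocount of 5 gave 0 in place of 2 for untreated cultures over time. The cause of the other differences was not tested. Leaving out single samples of groups of 2 to 5 kept each total within 1.5 times its value. Without any 1 of the LPS mice the calls in mice were 4 in place of 5, since Dusp5 then passed the filter on low values in too few mice to be tested.

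Plate and pool terms were not run for comparisons between 72 and 24 h in LPS_hi or untreated cultures, and the rank-sum test was not run for comparisons that are not between 2 groups. No paired analysis was possible because replicate numbers follow accession order only. Depth limits genes near 1 CPM, such as Dusp2 at 72 h and Dusp4 in mice.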
